A study of Mus musculus with 24 samples.

Results

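The abundance and m6A enrichment of 8 noncoding RNA genes were followed across all libraries of this MeRIP-seq series: Malat1, Neat1, Kcnq1ot1, Gas5, Snhg1, Snhg8, Snhg12 and Bc1. They were chosen by symbol, and each symbol matched 1 of the 54446 gene identifiers in the count tables, so that 8 of 54446 identifiers are described. The cells were CD11b+ myeloid cells taken out of tumors of MC38, a transplantable mouse colon carcinoma line. All mice carried floxed Ythdf2 alleles on the C57BL/6J background, and those named Ythdf2 cKO also carried Lyz-Cre, which is active in myeloid cells, while those named WT did not. Tumors received no irradiation (Control, here Ctrl) or 1 dose of 20 Gy (Irradiation, here IR), and cells were collected 3 days later. Each of the 4 combinations gave 3 Input libraries and 3 libraries of the RNA fraction precipitated with an antibody to N6-methyladenosine (the m6A IP), 24 libraries in all. The study's methods describe pools of mice and call the replicates technical in one place and biological in another. The p-values therefore measure the spread between these libraries, which may be technical.

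Long noncoding RNAs act as RNA and are not translated into known proteins. Malat1 is a nuclear RNA of splicing speckles, and Neat1 is the scaffold of paraspeckles, nuclear bodies that need its long isoform. Kcnq1ot1 is transcribed antisense to Kcnq1 from the paternal allele and silences neighbouring imprinted genes. Gas5, Snhg1, Snhg8 and Snhg12 are host genes: small nucleolar RNAs (snoRNAs), which guide chemical modification of ribosomal RNA, are cut from their introns, and the spliced remainder is degraded quickly, in part by nonsense-mediated decay. Bc1 is a short cytoplasmic RNA transcribed by RNA polymerase III and best known from neurons. m6A is a methyl mark on adenosine that YTHDF2 binds in the cytoplasm, where it promotes decay of the marked RNA.

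In GRCm38 the genes lie as follows. Malat1 (ENSMUSG00000092341.2) spans chr19:5795690-5802672 on the minus strand and is annotated as a single block of exon. Neat1 (ENSMUSG00000092274.3) spans chr19:5824708-5845478 on the minus strand, with a long isoform of 20771 bases and a short isoform of 3170 bases that share their 5′ part. Kcnq1ot1 (ENSMUSG00000101609.2) is an unspliced transcript of 93092 bases at chr7:143203458-143296549 on the minus strand, inside Kcnq1 on the plus strand. Gas5 (ENSMUSG00000053332.13) spans chr1:161034422-161038539 on the plus strand, and its first 428 bases overlap Zbtb37 on the other strand. Snhg1 (ENSMUSG00000108414.1) lies at chr19:8723475-8726443 on the plus strand, Snhg8 (ENSMUSG00000104960.1) at chr3:123507552-123508404 on the minus strand, and Snhg12 (ENSMUSG00000086290.9) at chr4:132308623-132311024 on the plus strand. Bc1 (ENSMUSG00000115783.1) is 168 bases long, at chr7:144914470-144914637 on the plus strand. The 4 host genes contain 24 snoRNA gene identifiers, and these had 0 counts in the sum of all 24 libraries. The annotated exons of Snhg1, Snhg8 and Snhg12 each merge into 1 block that covers their snoRNA genes. Reads that match more than 1 gene may be left out of the counts as ambiguous. The 0 therefore does not show whether snoRNA reads were present, and neither these counts nor those of the hosts measure the snoRNAs.

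The sequences on which the results turn are shown first: the places where m6A peaks recurred in Snhg1 and Neat1, the whole of Bc1, and the transcription starts of the 4 host genes. The peak windows are 101 bases around the median summit, read on the gene's strand of GRCm38.p6, and capitals mark GAC or AAC that follows A, G or T and precedes A, C or T, the general m6A context.
Snhg1 around base 2487 (summits in 6 libraries), chr19:8725911-8726011, plus strand: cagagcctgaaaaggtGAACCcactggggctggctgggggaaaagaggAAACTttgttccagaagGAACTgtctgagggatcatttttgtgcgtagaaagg
Snhg1 around base 1127 (summits in 3 libraries), chr19:8724551-8724651, plus strand: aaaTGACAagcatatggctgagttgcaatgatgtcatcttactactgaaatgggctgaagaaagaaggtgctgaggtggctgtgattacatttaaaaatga
Neat1 around base 268 (summits in 4 libraries), chr19:5845161-5845261, minus strand: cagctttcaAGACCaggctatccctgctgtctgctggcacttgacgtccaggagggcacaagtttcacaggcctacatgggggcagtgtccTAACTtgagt
Neat1 around base 1382 (summits in 8 libraries), chr19:5844047-5844147, minus strand: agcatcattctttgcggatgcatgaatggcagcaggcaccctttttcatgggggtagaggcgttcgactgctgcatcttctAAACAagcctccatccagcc
Neat1 around base 1982 (summits in 6 libraries), chr19:5843447-5843547, minus strand: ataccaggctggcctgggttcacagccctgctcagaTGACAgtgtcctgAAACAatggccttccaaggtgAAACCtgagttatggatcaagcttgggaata
Neat1 around base 3005 (summits in 8 libraries), chr19:5842424-5842524, minus strand: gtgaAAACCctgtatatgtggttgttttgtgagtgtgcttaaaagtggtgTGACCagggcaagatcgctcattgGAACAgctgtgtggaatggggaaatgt
Bc1, whole gene, chr7:144914470-144914637, plus strand: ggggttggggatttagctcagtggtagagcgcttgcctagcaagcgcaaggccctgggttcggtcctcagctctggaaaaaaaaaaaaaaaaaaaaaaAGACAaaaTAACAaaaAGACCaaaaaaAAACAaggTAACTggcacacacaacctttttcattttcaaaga
Each of the 6 peak windows held between 1 and 3 of the marked sites, read on the gene's strand only. Of the windows of the same length around the 12181 consensus peaks of WT Ctrl, 88.8% held at least 1, with a mean of 2.11 sites a window. None of the 6 windows and no part of Bc1 held GGAC, which 35.4% of the WT Ctrl windows held, or GGACT, which 11.2% held. Over whole genes, GGACT occurred 9 times in Malat1, 23 times in Neat1 and 80 times in Kcnq1ot1. The longest run of A in Bc1 was 23 bases. The 5′ part of Bc1 is known to resemble the ID repeats scattered through rodent genomes, so reads of such copies and of Bc1 may not be separated, and the values of Bc1 are uncertain to that extent.

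The start of a host gene transcript is shown because host genes are known for a run of pyrimidines (C and T) at their start, as ribosomal protein genes have. The windows run from 20 bases before to 40 bases after the start in RefSeq (GRCm38.p6), and capitals mark runs of at least 6 C or T on the gene's strand.
Gas5, chr1:161035146-161035205, plus strand: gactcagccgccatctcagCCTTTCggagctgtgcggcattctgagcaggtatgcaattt
Snhg1, chr19:8723467-8723526, plus strand: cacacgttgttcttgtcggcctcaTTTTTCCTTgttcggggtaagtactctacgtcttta
Snhg8, chr3:123508297-123508356, minus strand: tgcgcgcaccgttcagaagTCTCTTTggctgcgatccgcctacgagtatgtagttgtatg
Snhg12, chr4:132308658-132308717, plus strand: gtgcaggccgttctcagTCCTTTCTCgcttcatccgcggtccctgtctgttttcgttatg
RefSeq gave 5 starts for the 4 genes, since Gas5 had a second one, and 4 of the 5 windows held such a run. The window of the other Gas5 start had no run over 3. In RefSeq 48.9% of all 32851 starts held a run of at least 6.

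Libraries held 65.2M to 83.7M gene counts (M, a factor of 1e6) for Input and 68.8M to 86.4M for IP, and 12 of 12 myeloid markers fixed for the check averaged at least 1 CPM in every group, whereas the tested markers of T, B or NK cells summed to at most 2.96 CPM per cell type in any Input library. Endothelial markers summed to 121 to 205 CPM in the Inputs, nearly all of it Vwf (means of 191 and 199 CPM in WT, 162 and 122 CPM in cKO, Ctrl and IR), and tumour epithelial markers to at most 8.72 CPM in Inputs but 82.9 to 116 CPM in IP libraries, nearly all of it Cdh1. Vwf and Cdh1 also averaged at least 1 CPM in every group, so passing this level does not measure how pure the cells were. CPM are counts per 1e6 of a library's total scaled by TMM over all 24 libraries. Levels of Lyz2, a myeloid gene that carries the Cre, did not follow the labels of the IR IP libraries. In Inputs Lyz2 averaged 22200 CPM (Ctrl) and 22300 CPM (IR) in WT, against 326 CPM (Ctrl) and 440 CPM (IR) in cKO. In IP libraries it averaged 16100 CPM in WT Ctrl and 88.6 in cKO Ctrl, but 89.6 in the IR group labelled WT and 19700 in the one labelled cKO. All 6 IR IP libraries therefore stood at the Lyz2 level of the other genotype, and the groups are named here only by their labels. Ratios of IP over Input in the labelled IR groups are given as such, and the effect of irradiation on the ratio is taken as the mean over both genotypes, which would be the same if the IP libraries of the genotypes were exchanged. Ythdf2 itself averaged 104 and 113 CPM in the WT Inputs (Ctrl and IR) but 193 and 239 CPM in those of cKO, so its count goes against the label cKO, and every direction between genotypes below rests on the labels. Whether the deleted part is within the counted exons is not given in the sources used here.

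Malat1 was the most abundant of the genes. Its mean over the 12 Inputs was 1210 CPM, rank 80 among all genes. Per kilobase of exon, the Input level was 173 CPM for Malat1, 97.4 for Bc1, 7.63 for Gas5, 3.80 for Snhg8, 2.77 for Neat1, 2.54 for Snhg1, 1.76 for Snhg12 and 0.178 for Kcnq1ot1. Group means per kilobase ran from 115 to 280 CPM for Malat1 and from 54.7 to 200 for Bc1, so these neighbours overlapped. Those of Gas5, at 6.04 to 9.18 CPM per kilobase, lay above the ones of Snhg8 (3.16 to 4.37), which overlapped with Neat1 (2.34 to 3.52). Neat1 overlapped with Snhg1 (1.99 to 3.16), and Snhg1 with Snhg12 (1.45 to 2.07). The length of Neat1 in this division is that of the long isoform, and the gene counts do not separate its isoforms.

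The first question was how irradiation changed the genes in WT cells, for which Inputs were compared with edgeR's quasi-likelihood test over all genes (Benjamini-Hochberg adjusted p under 0.05 within a comparison). In WT, 6 of 8 genes rose and none fell. Among all genes tested 31.7% were called in this comparison, 14.7% up and 17.0% down. The median log2 change was 0.44 over the 8 genes and 0.01 over all genes. Malat1 counted 1090, 1120 and 1110 CPM in WT Ctrl and 1940, 2040 and 1890 CPM in WT IR, with no overlap. This was a log2 change of 0.83 ± 0.03 (SE, adjusted p = 1.05e-13). Neat1 was at 49.5, 47.9 and 48.3 CPM in WT Ctrl and rose to 69.2, 76.8 and 73.4 CPM in WT IR (log2 change 0.60 ± 0.05, adjusted p = 4.74e-09). Every irradiated library lay above every control library for both nuclear RNAs. Kcnq1ot1 rose by 0.45 ± 0.08 on the log2 scale (adjusted p = 0.000124), from 19, 20.4 and 19.3 CPM to 25.3, 29.5 and 25.2 CPM. As cells were measured in bulk, a change in the number of cells of a type and a change in RNA per cell cannot be told apart.

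The host genes Gas5 and Snhg1 also rose in WT. Gas5 went from 23.9, 22.7 and 24 CPM in WT Ctrl to 30.0, 38.4 and 33.5 CPM in WT IR (log2 change 0.53 ± 0.08, adjusted p = 1.27e-05). Snhg1 went from 5.72, 6.34 and 6.88 CPM to 7.84, 9.35 and 8.37 CPM (0.44 ± 0.11, adjusted p = 0.00352). Neither gene's groups overlapped. Snhg12, at a log2 change of 0.25 ± 0.14, and Snhg8, at 0.29 ± 0.17, did not pass the test (adjusted p = 0.186 and 0.215). Snhg8 passed without WT IR Input replicate 1 (0.45, adjusted p = 0.0292). Snhg8 had only 170 to 269 counts in the 6 WT Inputs. Bc1 was called at 0.39 ± 0.13 (adjusted p = 0.0212), with 8.67, 9.46 and 9.45 CPM in WT Ctrl and 13.9, 10 and 12.1 CPM in WT IR. The Bc1 call did not hold without WT Ctrl Input replicate 1 (0.35, adjusted p = 0.0831), WT IR Input replicate 1 (0.28, adjusted p = 0.0609) or WT IR Input replicate 3 (0.38, adjusted p = 0.0594).

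In cKO cells irradiation moved the genes in both directions. Of the 8 genes 5 rose, 1 fell and 2 did not pass the test, where 45.6% of all genes were called, 21.8% up and 23.8% down. Bc1 rose most among the 8, from 10.4, 9.89 and 11.6 CPM in cKO Ctrl to 41.3, 31.0 and 28.5 CPM in cKO IR (log2 change 1.67 ± 0.12, adjusted p = 5.19e-10). The 3 cKO IR Inputs were above all 9 other Inputs, of which the highest was at 13.9 CPM. Gas5 rose by 0.62 ± 0.08, Snhg1 by 0.69 ± 0.11 and Snhg12 by 0.53 ± 0.14 on the log2 scale (adjusted p = 9.89e-07, 2.14e-05 and 0.00347). Snhg8 had a log2 change of 0.39 ± 0.17 and an adjusted p of 0.0725, which became 0.0253 without cKO Ctrl Input replicate 1 and 0.0447 without cKO IR Input replicate 1. Malat1 rose by 0.28 ± 0.03 (adjusted p = 4.93e-07), from 802, 807 and 795 CPM to 987, 974 and 922 CPM. Neat1 fell, from 57.1, 59.9 and 59.1 CPM to 50.1, 51.3 and 47.0 CPM (-0.23 ± 0.05, adjusted p = 0.000389). Kcnq1ot1 stood at -0.05 ± 0.09 (adjusted p = 0.672).

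**Figure D1:**
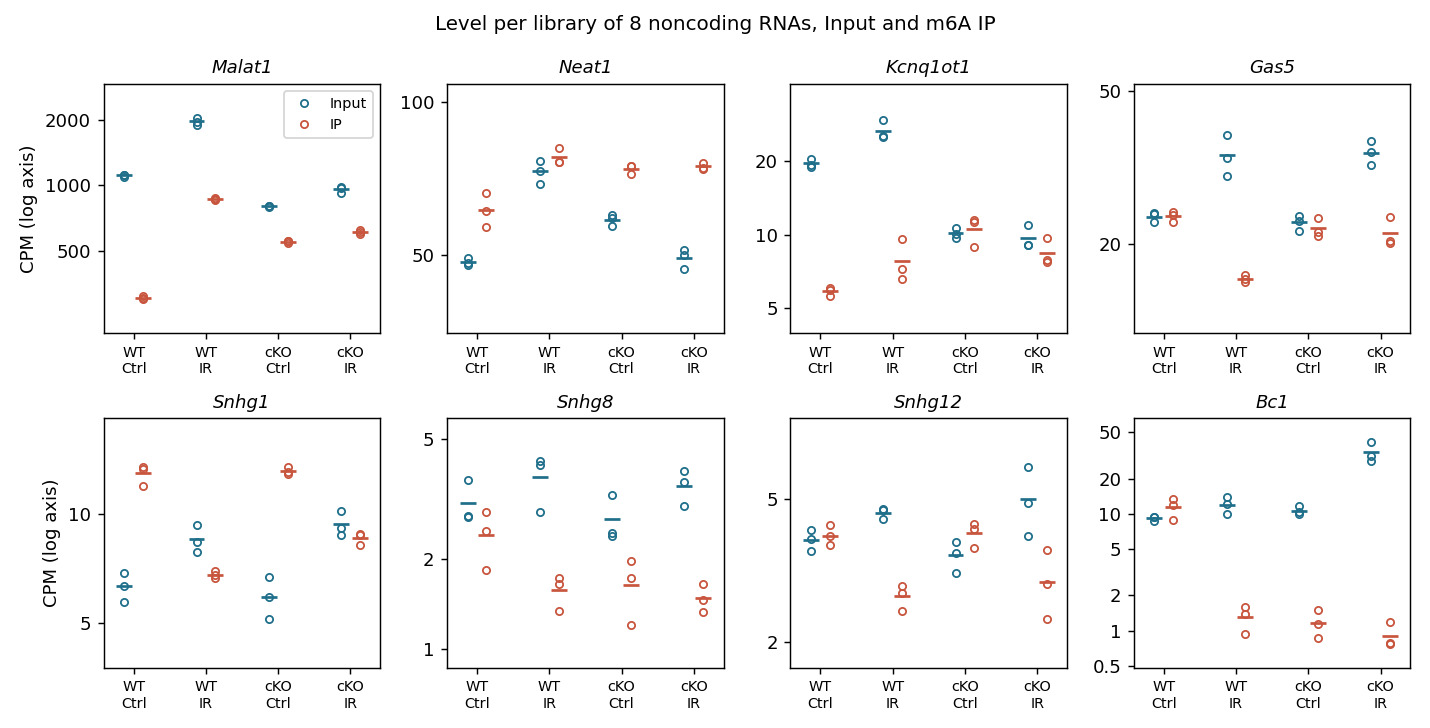
Level of each gene in each library, in CPM on a log axis scaled for each gene, for the 4 labelled groups. Open circles are libraries, horizontal lines are group means (n = 3), blue marks Input and red marks m6A IP. Bc1 Input was highest in cKO IR at 28.5 to 41.3 CPM, and Bc1 IP was at 8.90 to 13.3 CPM in WT Ctrl and at most 1.59 CPM in the other 3 groups.

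**Figure D2:**
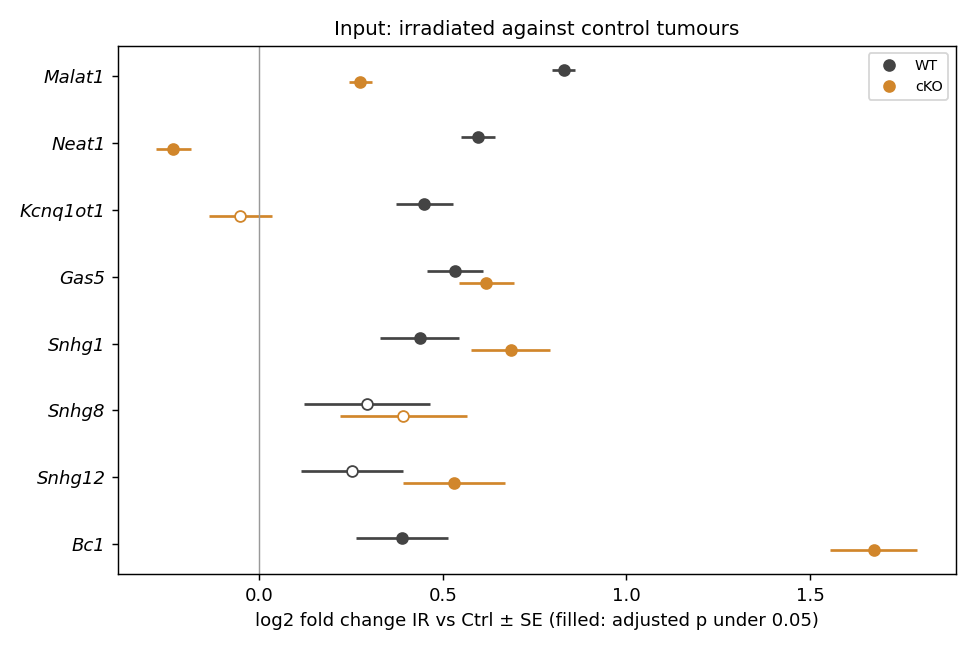
Log2 fold change of IR against Ctrl in Input for WT (grey) and cKO (orange), with SE from the edgeR fit of 12 Inputs, where filled points passed an adjusted p of 0.05. Neat1 lay at 0.60 in WT and -0.23 in cKO, whereas the 4 host genes lay between 0.25 and 0.69 in both genotypes.

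The next question was whether the effect of irradiation differed between genotypes, which the interaction term tested directly (effect in cKO minus effect in WT). It was called for 4 of 8 genes, 1 up and 3 down, against 30.2% of all genes (15.0% up, 15.2% down). The effect on Neat1 was lower in cKO by 0.83 ± 0.07 on the log2 scale (-0.83, adjusted p = 3.01e-08), with opposite signs in the genotypes. For Malat1 the difference was -0.55 ± 0.05 (adjusted p = 3.36e-08), and for Kcnq1ot1 it was -0.50 ± 0.12 (adjusted p = 0.00214). For Bc1 it was 1.28 ± 0.17 (adjusted p = 9.95e-06). The 4 host genes did not pass: the differences were 0.09 ± 0.11 for Gas5, 0.25 ± 0.15 for Snhg1, 0.10 ± 0.24 for Snhg8 and 0.28 ± 0.20 for Snhg12 (adjusted p = 0.613, 0.245, 0.812 and 0.323).

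Genotypes were then compared within each treatment. In Ctrl, Kcnq1ot1 was lower in cKO by 0.96 ± 0.08 on the log2 scale (-0.96, adjusted p = 4.49e-08) and Malat1 by 0.47 ± 0.03 (-0.47, adjusted p = 1.44e-09), and Neat1 was higher by 0.27 ± 0.05 (0.27, adjusted p = 0.000468). These were 3 of 8 genes, and 15.7% of all genes were called (8.05% up, 7.61% down). In IR the same contrast called Kcnq1ot1 at -1.46 ± 0.08, Malat1 at -1.03 ± 0.03, Neat1 at -0.56 ± 0.05 and Bc1 at 1.48 ± 0.12 (adjusted p = 1.85e-11, 8.25e-15, 5.76e-09 and 2.74e-09), 4 of 8 genes against 47.7% of all genes (23.9% up, 23.8% down). The cKO Inputs of Kcnq1ot1 lay at 9.68 to 10.7 CPM in Ctrl and at 9.05 to 11 CPM in IR, below all 6 WT Inputs, which ran from 19 to 29.5 CPM. Bc1 did not pass in Ctrl (0.20 ± 0.13, adjusted p = 0.333). None of the host genes was called between genotypes, with log2 differences from -0.19 for Snhg8 to -0.06 for Gas5 in Ctrl and from -0.10 for Snhg8 to 0.14 for Snhg1 in IR.

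Other measures of the libraries also differed between the groups. Reads assigned to no counted feature can lie between genes or, where exons are counted, in introns. They made up 6.32% (IR) and 5.25% (Ctrl) of the uniquely aligned reads of WT Inputs, and 4.22% (IR) and 4.43% (Ctrl) of those of cKO Inputs (means, n = 3). This share, like Malat1 and Kcnq1ot1, was highest in WT IR and second highest in WT Ctrl, and its part in these results was not tested. The mitochondrial share of counts was 4.61 to 4.84% in WT Ctrl Inputs, 6.13 to 7.25% in WT IR, 5.34 to 5.51% in cKO Ctrl and 3.39 to 3.75% in cKO IR. It was thus higher after irradiation in WT and lower in cKO, as Neat1 was, and its part was not tested. The neutrophil gene S100a9 fell with irradiation in WT (-2.52 ± 0.04, from 1120 to 194 CPM, adjusted p = 2.80e-20) and in cKO (-1.39 ± 0.04, from 411 to 155 CPM, adjusted p = 8.09e-16). S100a8 fell likewise (-2.38 ± 0.08 and -1.17 ± 0.08, adjusted p = 1.11e-14 and 2.19e-10), and the part of these cells in the irradiation results was not tested. The endothelial gene Vwf fell in cKO (-0.39 ± 0.03, adjusted p = 8.53e-09) and did not pass in WT (0.06 ± 0.03, adjusted p = 0.168), with an interaction of -0.46 ± 0.05 (adjusted p = 5.88e-07). Of the 4 tested endothelial markers, 1 fell in WT and 2 in cKO, where 17.0% and 23.8% of all genes fell, and none rose. Pecam1 went from 2.52 to 0.894 CPM in WT and from 1.17 to 0.509 CPM in cKO (means), so Vwf does not stand for the whole list. The part of endothelial cells was not tested. Erythroid markers (5 of 6 tested) summed to 30.0 to 32.8 CPM in the WT IR Inputs and to at most 0.0721 CPM in the other Inputs, and their part in the WT IR values was not tested. For Bc1, 2 of 8 neuronal markers, Syn1 and Tubb3, had enough counts to be tested. Their sum was 12.6 to 14.3 CPM in the cKO IR Inputs, where Bc1 was highest, and 20.9 to 22.0 CPM in WT IR. Nearly all of it was Syn1 (means of 15.4 and 21.3 CPM in WT, 14.7 and 13.0 CPM in cKO, Ctrl and IR). Tubb3 averaged 0.167 and 0.227 CPM in WT and 0.278 and 0.314 CPM in cKO (Ctrl and IR). The mean of Tubb3 was thus highest in cKO IR, as that of Bc1 was, but its groups overlapped. Tubb3 was at 0.208, 0.361 and 0.373 CPM in cKO IR (14 to 24 counts) and at 0.197, 0.181 and 0.456 CPM in cKO Ctrl. The part of neuronal RNA in the Bc1 values was not tested.

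The genes whose Input pattern was nearest were found by the root mean square difference of centred log2 CPM over the 12 Inputs, for the 7 genes whose group means spanned at least 0.5 on the log2 scale. For Malat1 they were Ptprf (0.083) and Dock9 (0.099). For Neat1 they were Sulf2 (0.086) and Megf11 (0.094, with at most 32 counts in an Input). Kcnq1ot1 was nearest to the predicted genes Gm43305 (0.107) and Gm48582 (0.154). Gas5 was nearest to Mdm2 (0.068) and Nampt (0.075), Snhg1 to Kpna4 (0.097) and Lgalsl (0.098), Snhg12 to Gypc (0.101) and Slc25a34 (0.102), and Bc1, at a larger distance, to Mucl1 (0.260) and Wfdc17 (0.260). The log2 CPM held a prior count of 0.5, which shrinks differences where counts are few. The fitted irradiation effect in WT was 1.67 ± 0.47 for Megf11 against 0.60 for Neat1. In cKO it was 2.40 ± 0.72 for Slc25a34 against 0.53 for Snhg12. Megf11 and Slc25a34 are therefore near in this measure only. Mdm2, a p53 target that encodes the ubiquitin ligase of p53, averaged 149 and 147 CPM in the Ctrl Inputs of WT and cKO, and 217 and 225 CPM in their IR Inputs.

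The m6A IP libraries were compared with Input in a fit of all 24 libraries. A positive log2 ratio means that the antibody fraction held more of the RNA, relative to all RNA in it, than the Input. The ratio is relative and gives no fraction of methylated molecules. In WT Ctrl the ratio passed the test for 4 of 8 genes, 2 up and 2 down, among 75.5% of all genes (38.1% up, 37.5% down). Snhg1 was enriched, with 13.3, 13.5 and 12 CPM in IP against 5.72, 6.34 and 6.88 CPM in Input (1.04 ± 0.09, adjusted p = 3.20e-12). Neat1 was weakly enriched (0.34 ± 0.05, adjusted p = 7.87e-08). Malat1 was depleted, with 304, 311 and 302 CPM in IP against 1090 to 1120 CPM in Input (-1.85 ± 0.03, adjusted p = 3.77e-33), as was Kcnq1ot1 (-1.74 ± 0.11, adjusted p = 1.19e-15). Gas5 stood at 0.00 ± 0.07, Snhg12 at 0.04 ± 0.14 and Snhg8 at -0.35 ± 0.19 (adjusted p = 0.981, 0.814 and 0.0934). Bc1 stood at 0.30 ± 0.15 with an adjusted p of 0.0621, which was 0.01 without WT Ctrl IP replicate 3.

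In cKO Ctrl 5 of 8 genes were called, 2 up and 3 down, beside 73.7% of all genes (37.8% up, 36.0% down). Snhg1 (1.16 ± 0.09) and Neat1 (0.33 ± 0.05) were again enriched (adjusted p = 2.17e-13 and 8.85e-08). Malat1 was depleted by less than in WT Ctrl (-0.54 ± 0.03, adjusted p = 1.70e-18), and Kcnq1ot1 stood near 0 (0.06 ± 0.11, adjusted p = 0.648). Gas5 (-0.05 ± 0.07) and Snhg12 (0.20 ± 0.15) did not pass (adjusted p = 0.512 and 0.204). Snhg8 was depleted (-0.72 ± 0.20, adjusted p = 0.00149), and Bc1 strongly so, with 1.5, 0.862 and 1.13 CPM in IP against 9.89 to 11.6 CPM in Input (-3.20 ± 0.19, adjusted p = 8.30e-17). The difference of the ratio between the genotypes in Ctrl was called for 3 of 8 genes, against 22.6% of all genes (10.1% up, 12.5% down). It was 1.32 ± 0.04 for Malat1 (adjusted p = 1.93e-22), 1.80 ± 0.16 for Kcnq1ot1 (adjusted p = 7.29e-11) and -3.50 ± 0.24 for Bc1 (adjusted p = 2.36e-13). For Malat1 both parts of the ratio differed, with IP means of 306 CPM in WT Ctrl and 552 CPM in cKO Ctrl and Input means of 1110 and 801 CPM. For Bc1 the IP means were 11.4 and 1.16 CPM and the Input means 9.19 and 10.6 CPM. Neat1 (-0.01 ± 0.07) and the 4 host genes (-0.37 to 0.17) did not pass.

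**Figure D3:**
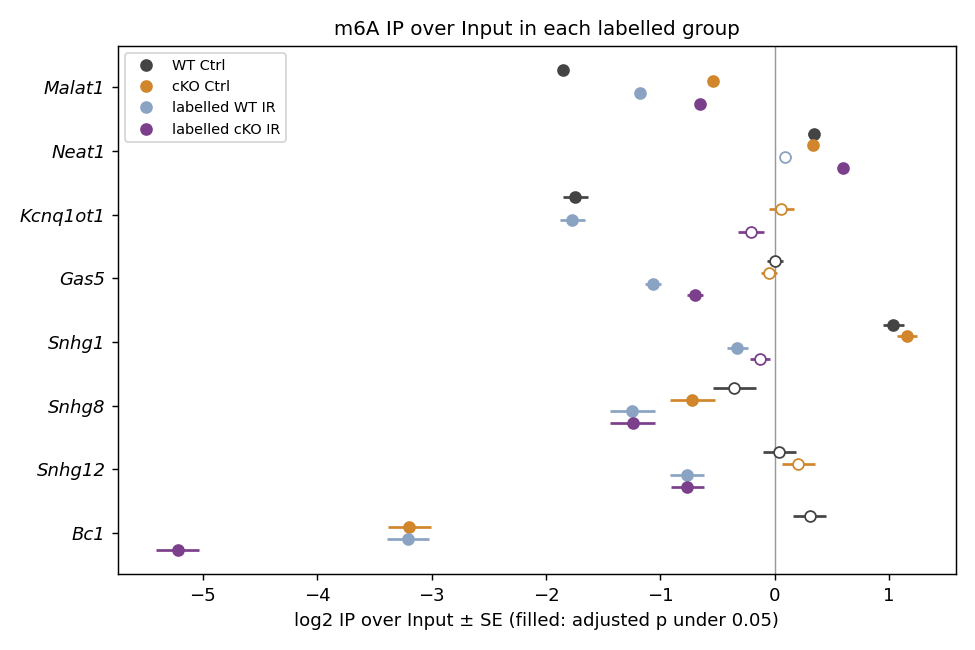
Log2 ratio of m6A IP over Input for each gene in the 4 labelled groups, with SE from the edgeR fit of 24 libraries, where filled points passed an adjusted p of 0.05. Snhg1 was at 1.04 and 1.16 in the Ctrl groups and at -0.33 and -0.13 in the labelled IR groups, and Bc1 was at 0.30 in WT Ctrl and between -5.22 and -3.20 in the other 3.

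The ratio of IP over Input of all 4 host genes was lower after irradiation. Averaged over genotypes, the change of the log2 ratio from Ctrl to IR was called for 6 of 8 genes, 5 down and 1 up, among 48.4% of all genes (25.3% up, 23.1% down). Snhg1 fell by 1.32 ± 0.09 on the log2 scale (-1.32, adjusted p = 3.86e-14). As the mean of genotypes, its ratio was 1.10 in Ctrl and -0.23 in IR, those of Bc1 were -1.45 and -4.21, and those of Malat1 were -1.20 and -0.92. In these means 6 of 8 genes were called in Ctrl (2 up, 4 down, against 81.3% of all genes, 41.0% up and 40.3% down) and 8 of 8 in IR (1 up, 7 down, against 80.3%, 40.1% up and 40.2% down). The IP levels of Snhg1 were 13.3, 13.5 and 12 CPM in WT Ctrl and 12.9, 13.1 and 13.5 CPM in cKO Ctrl, but 6.78, 6.94 and 6.67 CPM in the IR group labelled WT and 8.22, 8.78 and 8.79 CPM in the one labelled cKO. All 6 IR IP libraries lay below all 6 Ctrl IP libraries, while all 6 IR Inputs lay above all 6 Ctrl Inputs. Snhg12 changed by -0.89 ± 0.15, Gas5 by -0.86 ± 0.07 and Snhg8 by -0.71 ± 0.20 (adjusted p = 3.88e-06, 4.01e-12 and 0.00279). For Gas5 the IP mean was 23.6 and 21.9 CPM in the Ctrl groups and 16.2 and 21.3 CPM in the labelled IR groups, and 1 library labelled cKO IR, at 23.5 CPM, lay among the Ctrl values. Snhg12 IP lay at 3.64 to 4.26 CPM in the Ctrl libraries and at 2.31 to 3.59 CPM in the IR libraries, with no overlap. Snhg8 IP was at 1.84, 2.48 and 2.85 CPM in WT Ctrl and at 1.20, 1.97 and 1.72 CPM in cKO Ctrl. In the IR groups labelled WT and cKO it was at 1.34, 1.73 and 1.65 CPM and at 1.46, 1.33 and 1.65 CPM, so Ctrl and IR libraries overlapped.

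Outside the host genes the directions were mixed. Malat1 rose slightly in the averaged ratio (0.28 ± 0.03, adjusted p = 1.42e-10). By label its ratio went up in WT, from -1.85 to -1.18, and down in cKO, from -0.54 to -0.65, so the mean hides opposite directions. Neat1 (0.01 ± 0.05) and Kcnq1ot1 (-0.15 ± 0.11) did not pass (adjusted p = 0.922 and 0.297). Bc1 fell by 2.77 ± 0.19 (-2.77, adjusted p = 2.61e-14). Its IP level was 13.3, 11.9 and 8.90 CPM in WT Ctrl, and the 9 libraries of the other 3 groups lay between 0.762 and 1.59 CPM, from 63 to 118 counts each. With the labels as they stand, the ratio in the group labelled WT IR was -1.18 ± 0.03 for Malat1, -1.77 ± 0.11 for Kcnq1ot1 and -3.20 ± 0.18 for Bc1. In the group labelled cKO IR it was -0.65 ± 0.03, -0.21 ± 0.11 and -5.22 ± 0.19. The host genes stood at -1.07 and -0.70 (Gas5), -0.33 and -0.13 (Snhg1), -1.25 and -1.24 (Snhg8) and -0.77 and -0.76 (Snhg12) in the first and the second of these groups, and Snhg1 did not pass in the second. Neat1 did not pass in the first (0.09 ± 0.05, adjusted p = 0.0685). In the first group 7 of 8 genes were called, all down, against 73.5% of all genes (37.0% up, 36.5% down). In the second 6 of 8 were called, 1 up (Neat1, 0.60 ± 0.05) and 5 down, against 73.8% (36.9% up, 36.9% down). Malat1 IP averaged 864 CPM in the first group and 611 CPM in the second, whereas in Ctrl the cKO libraries had the higher value.

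Peaks were called by the authors in each IP library on each strand, and the lists are described here with their own fold enrichment, without a test. The Input used as control for each list is not given in the sources used here. Whether the IR lists were called against Input of the same genotype is therefore not known. Peaks on the strand of the gene were present over 2 of the 8 genes, Neat1 and Snhg1. None of the 12 lists held a peak over Malat1, Kcnq1ot1, Gas5, Snhg8, Snhg12 or Bc1 on either strand. A peak missing from the lists does not show a lack of m6A in these RNAs, at high or low counts. Read coverage along them was not examined. The IP counts of Malat1 ran from 23082 to 70037, those of Snhg8 from 94 to 226 and those of Bc1 from 63 to 1006. A consensus peak, present in all 3 replicates of a group, lay over 27.7% of the 17367 genes tested with a position in WT Ctrl and over 25.8% in cKO Ctrl, against 23.35% and 20.85% in the IR groups labelled WT and cKO. The number of consensus peaks was also lower in IR, at 9927 and 9056 against 12181 and 10918. Among the 1573 genes annotated as lincRNA, antisense or processed transcript the shares were 7.76% and 6.36% in Ctrl and 5.15% and 6.17% in IR.

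Snhg1 carried a peak near its 3′ end in all 6 Ctrl IP libraries and in none of the 6 IR IP libraries. The fold enrichment was 6.74, 5.23 and 5.79 in WT Ctrl and 5.73, 5.36 and 5.78 in cKO Ctrl, with -log10 q from 46.9 to 66.9. Summits lay 2479 to 2520 bases from the 5′ end of the gene. The 6 peaks shared 324 bases, chr19:8725926-8726249. In the spliced isoform Snhg1-211 this stretch runs from the intron between exons 8 and 9 to the start of exon 10, and its summits fall in that intron, which also holds Snord22 (bases 2392 to 2517 of the gene). Isoforms annotated with retained introns cover the same bases. A second place, at bases 1116 to 1153, had a peak in WT Ctrl replicate 2 (fold 4.11) and in cKO Ctrl replicates 1 and 2 (4.51 and 4.55). It lies between exons 3 and 4 of Snhg1-211, at the end of the snoRNA Gm24452 (bases 1057 to 1128). The counts of Snhg1 in the IR IP libraries were 514 to 751, against 954 to 1068 in the Ctrl IP libraries.

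Neat1 had 33 peaks over the 12 libraries, with at least 1 in each. All 33 summits lay between bases 268 and 3028, inside the short isoform (bases 3 to 3172) that also forms the 5′ part of the long one, and none lay in the remaining bases of the long isoform. The RNA had been selected for poly(A) tails, and read coverage of those remaining bases was not examined. The lack of peaks there therefore does not show a lack of m6A. Places recurred across groups: bases 1377 to 1382 in 8 libraries, 2936 to 3028 in 8, 1965 to 2002 in 6 and 268 to 272 in 4. The fold enrichment was low, from 1.41 to 3.38. The peaks of Neat1, unlike those of Snhg1, were present in both treatments. The consensus numbered 3 peaks in WT Ctrl and 1 in cKO Ctrl, and 1 and 3 in the IR groups labelled WT and cKO. With 2 of 3 replicates required, it numbered 2 in cKO Ctrl and 3 in the IR group labelled WT, and with a fold of at least 4 it was 0 in all groups.

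**Figure D4:**
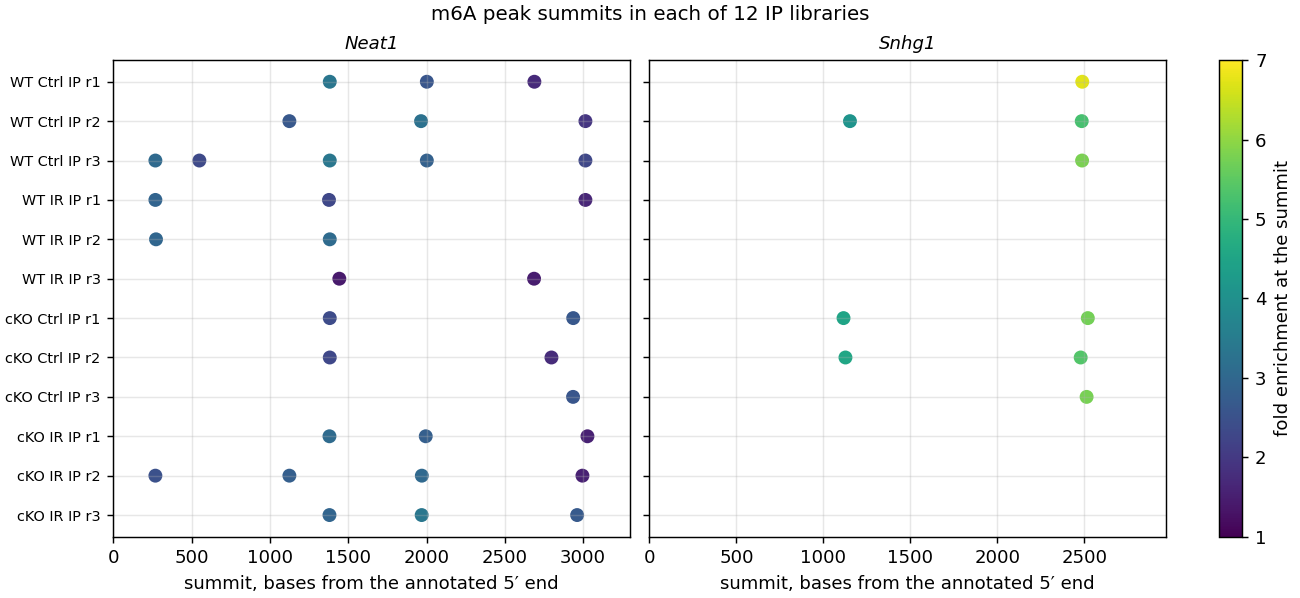
Position of each m6A peak summit along Neat1 (its first 3.3 kb) and Snhg1, in bases from the annotated 5′ end, in each of the 12 IP libraries, with colour for the fold enrichment given in the peak list. The Snhg1 peak at bases 2479 to 2520 is present in the 6 Ctrl libraries and missing in the 6 IR libraries, whereas Neat1 has peaks in every library.

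Other host genes were examined from a list of 17 symbols. In Input 10 were tested, and 4 rose and none fell after irradiation in WT, where 14.7% of all genes rose, and 4 rose and none fell in cKO, where 21.8% did. The largest called rise was that of Snhg3 in WT (1.26 ± 0.43, adjusted p = 0.0288), a gene with 16 to 62 counts in the WT Inputs whose call was lost in 4 of 6 fits that left out a library. In cKO it was that of Snhg15 (1.32 ± 0.07, adjusted p = 1.75e-11). In cKO IR against WT IR 4 host genes were higher (23.9% of all genes), led by Snhg6 (0.59 ± 0.13, adjusted p = 0.000911). The interaction was highest for Epb41l4aos (0.69 ± 0.18, adjusted p = 0.00701) and lowest for Snhg17 (-0.73 ± 0.26, adjusted p = 0.0418), a call lost in 8 of 12 fits that left out a library. Between the genotypes in Ctrl none of the 10 was called. In the averaged IP over Input ratio 6 of 11 hosts fell after irradiation and none rose, against 23.1% down and 25.3% up of all genes, with a median of -0.94 against -0.01 for all genes. A fall was not particular to host genes. Of the 12 paraspeckle protein genes given below, 10 fell in this ratio and none rose, with a median of -0.18. Of the 14 genes of nonsense-mediated decay, 5 fell and 7 rose, with a median of 0.03. Snhg15 changed by -1.26 ± 0.08 and Zfas1 by -1.15 ± 0.09 (adjusted p = 1.16e-15 and 2.31e-12).

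Among 8 tested identifiers of other long noncoding RNAs, Pvt1, beside the Myc gene, had the largest called rise after irradiation in WT (0.81 ± 0.23, adjusted p = 0.00882) and in cKO (0.84 ± 0.22, adjusted p = 0.00325). Firre, an RNA transcribed from the X chromosome, had the largest called fall in cKO (-0.58 ± 0.15, adjusted p = 0.00322) and the lowest interaction (-0.79 ± 0.21, adjusted p = 0.00654). Lncpint was lower in cKO in Ctrl (-1.67 ± 0.14, adjusted p = 2.05e-08) and in IR (-1.65 ± 0.13, adjusted p = 1.76e-09). It averaged 4.78 CPM (Ctrl) and 7.54 CPM (IR) in WT, and 1.51 CPM (Ctrl) and 2.41 CPM (IR) in cKO, and so was lower in cKO as Kcnq1ot1 was.

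The proteins that work with these RNAs were given from lists. Of 12 paraspeckle proteins, 8 fell and none rose in WT after irradiation, against 17.0% down and 14.7% up of all genes. In cKO 9 fell and 2 rose, against 23.8% and 21.8%, with Hnrnpm at -0.49 ± 0.03 (adjusted p = 4.15e-11) and Hnrnph3 at 0.18 ± 0.06 (adjusted p = 0.0167, lost in 3 of 6 fits that left out a library). Hnrnpm was lower in cKO in IR (-0.31 ± 0.03, adjusted p = 2.69e-08) and in Ctrl (-0.09 ± 0.03, adjusted p = 0.037), a call that ended in all 6 fits that left out a library and in the replicate block (adjusted p = 0.061). Hnrnpk was higher in cKO in IR (0.27 ± 0.03, adjusted p = 1.14e-06) and had the highest interaction (0.22 ± 0.05, adjusted p = 0.00103), and Sfpq had the lowest (-0.27 ± 0.06, adjusted p = 0.000799).

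Of 14 genes of nonsense-mediated decay, which clears spliced host transcripts, 2 rose and 3 fell in WT, near the 14.7% and 17.0% of all genes, and 2 rose and 8 fell in cKO, against 21.8% and 23.8%. Magoh, of the exon junction complex, had the largest called fall in WT (-0.35 ± 0.09, adjusted p = 0.00409) and the largest rise in cKO (0.33 ± 0.09, adjusted p = 0.00372). Within IR it was also higher in cKO (0.69 ± 0.09, adjusted p = 1.56e-06), and its interaction was 0.68 ± 0.12 (adjusted p = 0.000262). The endonuclease gene Smg6 fell most in cKO (-0.41 ± 0.05, adjusted p = 8.80e-07), was lower in cKO within IR (-0.53 ± 0.05, adjusted p = 3.10e-08) and had the lowest interaction (-0.39 ± 0.07, adjusted p = 0.000224). Casc3 in WT (0.12 ± 0.04, adjusted p = 0.0322) and Smg1 between genotypes in Ctrl (-0.12 ± 0.04, adjusted p = 0.0277) were calls each lost in 4 of 6 fits that left out a library.

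Of 5 proteins that bind m6A or m6A-dependent sites, Hnrnpc rose in cKO (0.45 ± 0.03, adjusted p = 1.00e-09) and by 0.10 ± 0.03 in WT (adjusted p = 0.0315, lost in 4 of 6 fits that left out a library), with an interaction of 0.36 ± 0.05 (adjusted p = 9.89e-06). Igf2bp2, a mainly cytoplasmic reader that stabilises mRNA, fell in WT (-0.41 ± 0.05, adjusted p = 4.06e-06) and was higher in cKO within IR (0.32 ± 0.05, adjusted p = 4.61e-05). Hnrnpa2b1 fell most in cKO (-0.29 ± 0.03, adjusted p = 2.84e-08). Rbmx was lower in cKO in Ctrl (-0.35 ± 0.06, adjusted p = 0.000316) and in IR (-0.45 ± 0.06, adjusted p = 4.39e-06). Ythdc1, the nuclear reader, had the lowest interaction (-0.21 ± 0.07, adjusted p = 0.019, lost in 2 of 12 fits that left out a library).

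Kcnq1, in which Kcnq1ot1 lies, averaged 0.640 and 0.792 CPM in the WT Inputs (Ctrl and IR) and 0.385 and 0.431 CPM in those of cKO, and was not called in any Input comparison. Of 9 tested genes of the imprinted domain, 1 rose and 3 fell in WT (14.7% and 17.0% of all genes), and 1 rose and none fell in cKO (21.8% and 23.8%), where Cd81 rose (0.19 ± 0.04, adjusted p = 0.00103). Cdkn1c, which Kcnq1ot1 is known to silence, averaged 4.20 and 5.06 CPM in WT (Ctrl and IR) and 4.89 and 6.01 CPM in cKO, and was not called in any Input comparison. Tspan32 was higher in cKO in Ctrl (0.22 ± 0.06, adjusted p = 0.0134, lost in 3 of 6 fits that left out a library) and had the highest interaction (0.64 ± 0.08, adjusted p = 7.49e-06). Slc22a18, with Input means of 2.24 and 3.36 CPM in WT (Ctrl and IR) and 1.94 and 2.08 CPM in cKO, rose in WT as Kcnq1ot1 did (0.59 ± 0.22, adjusted p = 0.0437) and was lower in cKO within IR (-0.70 ± 0.22, adjusted p = 0.0125), calls lost in 3 of 6 and 2 of 6 such fits. Ascl2 had 3 to 42 counts in the 12 Inputs. It fell in WT (-1.72 ± 0.62, adjusted p = 0.0403), a call lost with the replicate block (adjusted p = 0.0721) and in 3 of 6 fits that left out a library, with -0.82 without WT Ctrl Input replicate 1. It was higher in cKO within IR (2.22 ± 0.61, adjusted p = 0.00503).

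Genes beside or opposite the noncoding genes were given for comparison. Zbtb37, which overlaps the start of Gas5 on the other strand, rose in WT (0.32 ± 0.09, adjusted p = 0.0114, lost without WT Ctrl Input replicate 3 or WT IR Input replicate 2) and was lower in cKO within IR (-0.68 ± 0.09, adjusted p = 3.89e-06), with an interaction of -0.54 ± 0.13 (adjusted p = 0.00334), whereas Gas5 did not differ by genotype past the test. Slc3a2, the gene divergent from Snhg1, rose after irradiation in WT (0.19 ± 0.04, adjusted p = 0.000833) and in cKO (0.23 ± 0.04, adjusted p = 8.38e-05), as Snhg1 did. It was slightly lower in cKO Ctrl (-0.19 ± 0.04, adjusted p = 0.00258) and had an IP over Input ratio of -1.82 ± 0.04 in WT Ctrl, where Snhg1 had 1.04. Trnau1ap, beside Snhg12, rose in cKO (0.35 ± 0.05, adjusted p = 1.26e-05), was higher in cKO in Ctrl (0.25 ± 0.05, adjusted p = 0.00258) and in IR (0.66 ± 0.05, adjusted p = 3.33e-09), and had an interaction of 0.41 ± 0.08 (adjusted p = 0.000272). Frmd8, near Neat1 and Malat1, was not called in any Input comparison. Fermt3, also in the list, fell in WT (-0.21 ± 0.05, adjusted p = 0.00252) and in cKO (-0.28 ± 0.05, adjusted p = 8.02e-05).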

How the data were processed

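CD11b+ myeloid cells of 4 groups gave 12 Input and 12 m6A IP libraries from poly(A)-selected RNA, so RNAs without a poly(A) tail are measured only as far as the selection kept them. Reads were trimmed by the authors (Trimmomatic 0.39 in the submitters' notes), aligned to mm10 with HISAT in a strand-aware mode and counted per gene with HTSeq, and MACS2 then called peaks in each library for the strands separately. The strand setting of the counting is not given in the sources used here, so reads of antisense partners may not be separated. The deposited gene values are raw counts. The deposited peak lists give fold enrichment as a ratio over a control, -log10 p-values and q-values, a score and the summit offset.

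Identifiers were matched without version to GENCODE vM21 (54409 of 54446 matched). Summary lines that name no gene were left out of totals, and reads assigned to no counted feature were 4.1 to 6.8% of uniquely aligned Input reads. Counts were tested with edgeR 4.0.16 in R 4.3.3 (quasi-likelihood F test, TMM, a minimum of 10 counts in 3 or more libraries, Benjamini-Hochberg over all genes tested), in one fit of 12 Inputs (16090 genes) and one of 24 libraries (17373 genes). SEs are the log2 change divided by the square root of F. Alternatives were DESeq2 1.42.0, RLE size factors, no filter, at least 50 counts, only the libraries of a contrast, a replicate block and leaving out each library. The pipeline was tested on simulated data. Peaks overlapping by at least 1 bp on the same strand in 3 of 3 replicates formed a consensus peak. Sequences came from GRCm38.p6, whose bases equalled the vM21 transcripts of Malat1, Neat1, Kcnq1ot1 and Bc1.

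All 8 members were named in every comparison, and from each list the called gene with the largest rise and the largest fall in each Input comparison, except that some listed genes are not reported here. Members and lists were chosen with earlier results of these data known. Snhg4, Snhg7, Snhg16, Norad and 7SK matched no identifier. Means of the ratio over genotypes and the fit without irradiated libraries were added after seeing the data.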

Additional observations from a re-analysis of the deposited data

Results flagged for a closer look

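Groups held 3 libraries, too few for the test of a single outlying library. Differences between groups that passed a test of the difference itself were the following.

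The irradiation effect in Input was lower in cKO than in WT for Neat1 (-0.83 log2), Malat1 (-0.55) and Kcnq1ot1 (-0.50), and higher for Bc1 (1.28), by the interaction term.

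The log2 ratio of IP over Input in Ctrl was higher in cKO than in WT for Malat1 (1.32) and Kcnq1ot1 (1.80) and lower for Bc1 (-3.50). The labels of the Ctrl IP libraries matched their Lyz2 levels.

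The log2 ratio of IP over Input changed from Ctrl to IR, as a mean of genotypes, for Bc1 (-2.77), Snhg1 (-1.32), Snhg12 (-0.89), Gas5 (-0.86), Snhg8 (-0.71) and Malat1 (0.28). For Bc1 the 3 WT Ctrl IP libraries alone were above 1.59 CPM. For Malat1 the ratio went up in WT and down in cKO by the labels.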

How the results depend on the processing

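The number of members called stayed within 1.5 times its value in all comparisons and alternatives run. Leaving out each library in turn gave 5 to 6 members in WT IR vs WT Ctrl, 6 to 7 in cKO IR vs cKO Ctrl, 3 in cKO Ctrl vs WT Ctrl, 4 in cKO IR vs WT IR and 4 in the interaction, and for IP over Input 4 to 6 in WT Ctrl, 5 in cKO Ctrl, 7 to 8 in the group labelled WT IR, 6 to 7 in the group labelled cKO IR, 6 for the averaged change and 3 for the genotype difference in Ctrl. Of 1568 single values of members under an alternative, 1516 kept direction and side of the threshold, 33 changed sign, 16 gained a call and 3, all of Bc1 in WT Input, lost one.

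No call of a member changed sign. Values that did were near 0 and not called. Gas5 in IP over Input of WT Ctrl was -0.06 with RLE size factors and with DESeq2, -0.03 with at least 50 counts, with only the libraries of the contrast and without irradiated libraries, and -0.03 to 0.02 leaving out a library. Snhg12 there was -0.02 with RLE and with DESeq2, and -0.02 to 0.07. The genotype difference of Neat1 in Ctrl was 0.01 with RLE and with DESeq2, 0 with at least 50 counts, and -0.06 to 0.05. Its averaged change was -0.01 with at least 50 counts and -0.01 to 0.04. Leaving out a library also gave -0.06 to 0.12 for Gas5, -0.06 to 0.27 for Snhg12 and -0.26 to 0.01 for Snhg8 in cKO IR vs WT IR, -0.06 to 0.25 for Snhg8 in the interaction, and -0.02 to 0.17 for Kcnq1ot1 in IP over Input of cKO Ctrl.

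Calls gained by other settings than leaving out a library were Snhg8 in cKO Input without a filter (adjusted p = 0.0435) and with only the contrast's libraries (0.0266), Bc1 in IP over Input of WT Ctrl without a filter (0.00128), with only the contrast's libraries (0.0266) and without irradiated libraries (0.035), Snhg8 there with DESeq2 (0.0482) and with only the contrast's libraries (0.0499), and, in the labelled IR groups, Neat1 without a filter (0.0231) and Kcnq1ot1 with only the contrast's libraries (0.0389). Leaving out a library gained 7, at an adjusted p of 0.0292 (Snhg8 in WT Input), 0.0253 and 0.0447 (Snhg8 in cKO Input), 0.01 (Bc1) and 0.0332 (Snhg8) in IP over Input of WT Ctrl, both without WT Ctrl IP replicate 3, 0.0167 for Neat1 in the group labelled WT IR without WT IR Input replicate 2, and 0.0188 for Kcnq1ot1 in the group labelled cKO IR without cKO IR IP replicate 2. The cause was not tested.

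The labels give replicate numbers but do not say what they mark. Deviations of same-numbered Inputs from their group means correlated between -0.22 and 0.15, with 1 of 18 pairs over 0.1, so the numbers were not taken as pairing. The replicate number as a block called 6, 6, 3, 4 and 4 members in the 5 Input comparisons and 4, 5, 7, 6, 6 and 3 in the IP over Input comparisons, the same numbers as without the block, and changed no call of a member. Of the other genes named, the block ended the calls of Hnrnpm in cKO Ctrl vs WT Ctrl and Ascl2 in WT IR vs WT Ctrl. Depth limits Snhg8, Snhg12 and the IP values of Bc1, and 3 libraries a group limit all tests.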
